A study of Homo sapiens with 8 samples.

Results

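The 9 genes described here encode coregulators of nuclear receptors, the proteins that receptors such as the glucocorticoid receptor recruit to switch transcription on or off. They were taken by symbol as NCOA1, NCOA2, NCOA3, CREBBP, EP300, MED1, SMARCA4, NCOR1 and NRIP1, and all 9 were found among the 19158 genes measured. RNA came from A549, an established human lung adenocarcinoma line of epithelial origin, here of wild-type genotype as labelled. Of 8 culture wells, 4 were left untreated and 4 received dexamethasone, a synthetic glucocorticoid, at 1 µM for 48 h. All wells were grown in the same medium with serum and carried 1 batch label. A single line in 4 wells a group means that the p-values measure the spread between wells and not between lines or donors.

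A receptor that has bound its hormone exposes a surface for short leucine-rich motifs on coactivators. The p160 coactivators NCOA1, NCOA2 and NCOA3 dock there and bring in the acetyltransferases CREBBP and EP300, MED1 links the receptor to the Mediator complex and RNA polymerase II, and SMARCA4 is an ATPase of the SWI/SNF chromatin remodellers. NCOR1 is the scaffold of a histone deacetylase corepressor complex, and NRIP1 is a corepressor that binds receptors in the presence of hormone. In lung epithelial cells dexamethasone acts through the glucocorticoid receptor both to induce genes and to repress inflammatory genes, and NCOA2 is known to take part in both. A549 cells are known to carry an inactivating mutation of SMARCA4 and to lack its protein.

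No coregulator of the 9 passed the test of dexamethasone against untreated over all 8 libraries, while 27.1% of the 12161 genes tested did (limma on log2(FPKM + 1), Benjamini-Hochberg adjusted p under 0.05). FPKM divides a gene's fragments by transcript length and by library depth, so that levels of different genes can be compared. NCOA2 came closest, with a fold of 1.68 and an adjusted p of 0.0658, and was the 1 gene of 9 with an unadjusted p under 0.05, which 4788 of the 12161 genes had. The untreated and the treated library numbered 5 held the lowest value of their group for 9 of 9 coregulators. Without both of them NCOA2, NCOA3 and NCOR1 passed as higher after dexamethasone, where 45.2% of 12236 genes passed in either direction and 22.5% as higher, and no coregulator passed as lower.

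**Figure D1:**
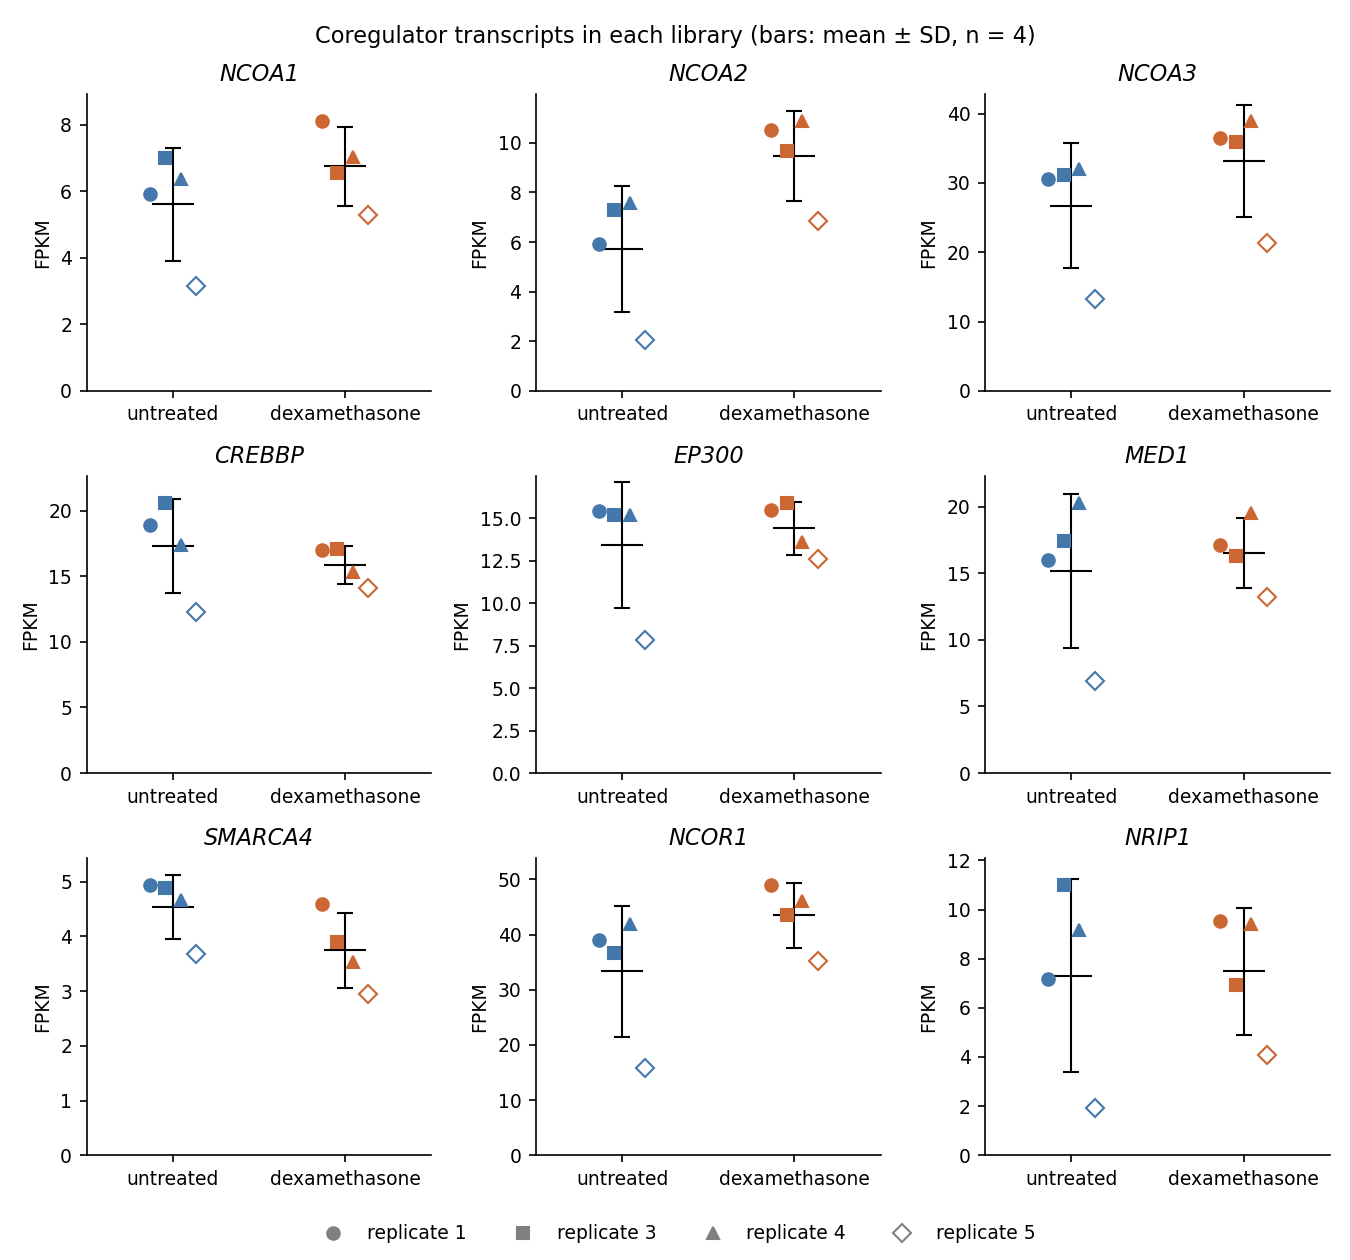
FPKM of the 9 coregulator genes in each library, with untreated and dexamethasone libraries side by side; points are libraries, and bars are group means with SD over 4 libraries. In both groups the library numbered 5 is the lowest for every gene, and NCOR1 and NCOA3 have the highest means.

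The treatment was visible in the glucocorticoid-induced genes of the same libraries. FKBP5, a chaperone partner of the receptor, ranged from 3.28 to 7.3 FPKM untreated and from 87.3 to 166 FPKM after dexamethasone. TSC22D3, the glucocorticoid-induced leucine zipper gene, ranged from 4.48 to 7.07 and from 91.8 to 111 FPKM, and PER1, a clock gene induced by glucocorticoids, from 3.1 to 3.84 and from 14.0 to 19.9 FPKM. The groups did not overlap for any of these, and the log2 fold changes were 4.34 (SE 0.217), 3.88 (SE 0.159) and 1.94 (SE 0.164), with adjusted p of 1.47e-06, 3.61e-07 and 3.27e-05 by limma. NR3C1, the glucocorticoid receptor itself, had 18.1 ± 6.23 FPKM untreated and 20.7 ± 8.69 FPKM treated (SD, n = 4), with a log2 fold change of 0.13 (SE 0.346, adjusted p = 0.796 by limma). Without both libraries numbered 5 its means were 21.1 ± 1.91 and 24.9 ± 2.36 FPKM (SD, n = 3). Its log2 fold change was then 0.28 and did not pass either (SE 0.0985, adjusted p = 0.0544 by limma).

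Libraries were estimated to rest on 24500000 to 29190000 fragments each, and 14798 to 15182 genes had a value above 0. The libraries numbered 5 stood apart by base composition and transcript length, and had the fewest genes above 0 and the lowest mitochondrial share of FPKM in their groups (1.74% untreated, 2.55% treated). Relative to the mean of the other 3 untreated libraries, untreated replicate 5 was lower by a median log2 of -0.45 over the 6473 tested genes with GC content under 50% and higher by 0.41 over the 5657 genes of 50% or more. For dexamethasone replicate 5 these medians were -0.24 and 0.27. Epithelial markers summed to 1910 to 3460 FPKM untreated and 2580 to 3310 FPKM treated, although EPCAM was at 0.765 FPKM or less in every library. KRT8 and KRT18 made up most of these sums and did not pass by limma. The sums hide opposite changes in lower markers. KRT19 fell from a mean of 156 to 54.7 FPKM (log2 -1.48, adjusted p = 0.0011 by limma). CDH1 rose from a mean of 6.8 to 18.2 FPKM (log2 1.33, adjusted p = 8.67e-05 by limma). Fibroblast markers summed to 1.89 to 2.43 FPKM untreated and 0.638 to 0.826 treated, and leukocyte markers to 5.78 to 7.52 and 3.07 to 3.75, both lower after dexamethasone without overlap. Of these, only COL1A1, CD68 and CD14 passed the filter on low values, and their part in the results was not tested. COL1A1 made up most of the fibroblast sum, at 1.79 to 2.25 FPKM untreated and 0.274 to 0.437 FPKM treated. DCN, a fibroblast marker below the filter, went the other way, from 0 in every untreated library to 0.178 to 0.355 FPKM treated. Endothelial markers summed to at most 0.186 FPKM, and COL1A2, PTPRC and CD3E were listed at 0 in every library. All wells were labelled as the single line A549, and which cells gave these low marker values was not tested. In bulk RNA, fewer cells of a type and less RNA per cell cannot be told apart.

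Without treatment NCOR1 had the highest level per transcript length, at 33.4 ± 11.9 FPKM (SD, n = 4), followed by NCOA3 at 26.7 ± 8.96 FPKM. CREBBP, MED1 and EP300 came next at 17.3 ± 3.57, 15.2 ± 5.77 and 13.4 ± 3.7 FPKM. NRIP1, NCOA2, NCOA1 and SMARCA4 were lowest, at 7.32 ± 3.93, 5.71 ± 2.54, 5.6 ± 1.7 and 4.54 ± 0.587 FPKM. Every pair of neighbours in this order overlapped in its values over the 4 libraries. Compared within libraries, NCOR1 exceeded NCOA3, NCOA3 exceeded CREBBP and EP300 exceeded NRIP1 in each of the 4. Each of the other steps held in 3 of the 4 libraries. After dexamethasone the order began again with NCOR1 at 43.5 ± 5.89 and NCOA3 at 33.2 ± 8.05 FPKM. There, 3 steps separated without overlap: NCOA3 from MED1 (16.5 ± 2.6 FPKM), EP300 (14.4 ± 1.54 FPKM) from NCOA2 (9.48 ± 1.81 FPKM), and NCOA1 (6.74 ± 1.18 FPKM) from SMARCA4 (3.75 ± 0.693 FPKM). Against all tested genes, mean FPKM placed NCOR1 at percentile 87.4, NCOA3 at 83.4 and SMARCA4 at 30.5.

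Promoter sequence was matched from RefSeq (GRCh38.p14), as windows of 300 bases from 250 before to 50 after a start site; 15 windows covered 8 of the 9 genes, and NCOA2 had none. The stretches upstream of a start site of NCOA3 and NCOR1, which passed the test without the libraries numbered 5, are shown with that of NRIP1, which did not. They read 5′ to 3′ on the gene's strand, with CpG dinucleotides in capitals, and lie at chr20:47501637-47501886 (plus strand), chr17:16215555-16215653 (minus strand) and chr21:15065937-15066186 (minus strand).
NCOA3: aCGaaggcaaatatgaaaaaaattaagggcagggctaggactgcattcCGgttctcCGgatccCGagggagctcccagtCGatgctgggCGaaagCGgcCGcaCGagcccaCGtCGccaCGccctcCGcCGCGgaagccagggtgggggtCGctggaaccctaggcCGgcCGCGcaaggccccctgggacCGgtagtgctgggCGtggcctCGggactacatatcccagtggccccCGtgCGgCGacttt
NCOR1: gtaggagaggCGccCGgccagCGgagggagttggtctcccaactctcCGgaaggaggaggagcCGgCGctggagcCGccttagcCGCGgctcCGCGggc
NRIP1: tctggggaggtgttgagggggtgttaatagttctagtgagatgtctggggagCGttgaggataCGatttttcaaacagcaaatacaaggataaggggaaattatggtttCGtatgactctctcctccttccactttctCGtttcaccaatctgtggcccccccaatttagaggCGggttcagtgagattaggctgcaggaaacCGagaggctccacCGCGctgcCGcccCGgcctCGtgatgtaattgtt
The stretches hold 25 CpG in 250 bases for NCOA3, 11 in 99 bases for NCOR1 and 11 in 250 bases for NRIP1. Over whole windows NCOA3 had 30 CpG, a count reached by 22.4% of the 35116 windows of all genes. The NCOR1 window shown had 35, and its other window had 0, so the count depends on the start site shown. The NRIP1 window shown had 14, the median of all windows, and its other start sites had windows with 32 and 48. For 8 of 8 genes the richest window held at least that median. Among the genes that, like NRIP1, did not pass without the libraries numbered 5, richest windows held 55 CpG for NCOA1 and for SMARCA4. They held 50 for CREBBP, 40 for EP300 and 24 for MED1. A link between CpG count and passing was not tested. The median is over single windows, while several of the genes had more than 1 window to choose from. How many of all genes reach it by their richest window was not computed. The full palindromic glucocorticoid response element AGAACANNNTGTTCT, searched on both strands, was in 1 of the 35116 windows (0.00285%) and in none of the 15. The looser palindrome GNACANNNTGTNC, which contains the full one, was in 137 windows (0.39%) and in none of the 15. The half-site AGAACA, a part of the full element, was in 14.8% of all windows and in 2 of the 15, one of NCOA1 and one of CREBBP. These are letter matches in short windows and say nothing of binding elsewhere.

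Among the p160 coactivators, NCOA2 (also called GRIP1) had the largest fold of the 9 genes (ENSG00000140396, minus strand of chromosome 8, 70109762 to 70403805). The untreated libraries 1, 3, 4 and 5 had 5.93, 7.3, 7.56 and 2.05 FPKM, and the dexamethasone libraries of the same numbers had 10.5, 9.67, 10.9 and 6.86 FPKM. Treated libraries 1, 3 and 4 lay above every untreated library, and treated library 5 lay within the untreated range as deposited. After scaling between libraries the groups did not overlap, which held for 1 of the 9 genes and for 31.6% of all genes tested. The log2 fold change was 0.75 (SE 0.267, 95% interval 0.15 to 1.35), or a fold of 1.68 (1.11 to 2.54), with an adjusted p of 0.0658 by limma. Without both libraries numbered 5 the means were 6.93 ± 0.875 and 10.3 ± 0.621 FPKM (SD, n = 3), and the log2 fold change of 0.57 (SE 0.0976) passed with an adjusted p of 0.0028 by limma. It passed also without untreated replicate 5 alone, at 0.47 with an adjusted p of 0.0286, in a fit with 3849 calls over all genes. With any other single library left out NCOA2 did not pass (adjusted p up to 0.168 by limma). Over 8 libraries with the GC trend removed it passed at 0.58 with an adjusted p of 0.025. In that fit 37.4% of all genes passed, and 18.5% as higher.

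NCOA3 (AIB1), the p160 member with the highest level, had 30.5, 31.1, 32.0 and 13.3 FPKM untreated and 36.5, 35.9, 39.0 and 21.3 FPKM after dexamethasone (ENSG00000124151, plus strand of chromosome 20, 47501902 to 47656877). Libraries 1, 3 and 4 of the treated group all lay above the untreated group, and treated library 5 lay between untreated library 5 and the rest. The log2 fold change was 0.35 (SE 0.238, interval -0.19 to 0.88, adjusted p = 0.301 by limma). Without both libraries numbered 5 it was 0.29 (SE 0.0682, adjusted p = 0.0105), from 31.2 ± 0.75 to 37.1 ± 1.64 FPKM (SD, n = 3). With the GC trend removed as well it was 0.15 and did not pass (adjusted p = 0.11). Without untreated replicate 5 alone it was 0.13 (adjusted p = 0.578). NCOA3 shares 247 exonic bases with SULF2 on the opposite strand.

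NCOA1, the first p160 coactivator described, had 5.92, 6.98, 6.36 and 3.14 FPKM untreated and 8.12, 6.55, 7.02 and 5.28 FPKM treated (ENSG00000084676, plus strand of chromosome 2, 24491914 to 24770702). The groups overlapped, with treated library 3 below untreated library 3. The log2 fold change was 0.27 (SE 0.171, interval -0.12 to 0.65, adjusted p = 0.268 by limma), and without both libraries numbered 5 it was 0.19 (adjusted p = 0.151). On the fold scale the interval over 8 libraries reached from 0.923 to 1.57.

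Within a library the 3 p160 genes can be set against each other, which removes any factor common to them. NCOA2 made up 14.0, 16.1, 16.5 and 11.1% of their summed FPKM in the untreated libraries and 19.0, 18.5, 19.1 and 20.6% in the treated ones, with no overlap. The NCOA3 share was 70.5 ± 1.74% untreated and 66.8 ± 2.44% treated, and the NCOA1 share 15.1 ± 1.45% and 13.9 ± 1.69% (SD, n = 4), with overlap for both. The summed p160 FPKM was 42.3, 45.3, 45.9 and 18.5 untreated and 55.1, 52.2, 56.9 and 33.4 treated. The library numbered 5 was thus lowest in the sum in both groups, while in the NCOA2 share it was lowest untreated and highest treated. These shares were computed after the values had been seen and are given without a test. The 3 transcripts have close GC contents, at 45.0, 43.4 and 42.7% for NCOA1, NCOA2 and NCOA3. Their drops in untreated replicate 5 still differed, at -0.59, -1.14 and -0.87 in log2 against the other untreated libraries. The part of base composition or of the libraries numbered 5 in these shares was not tested.

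**Figure D2:**
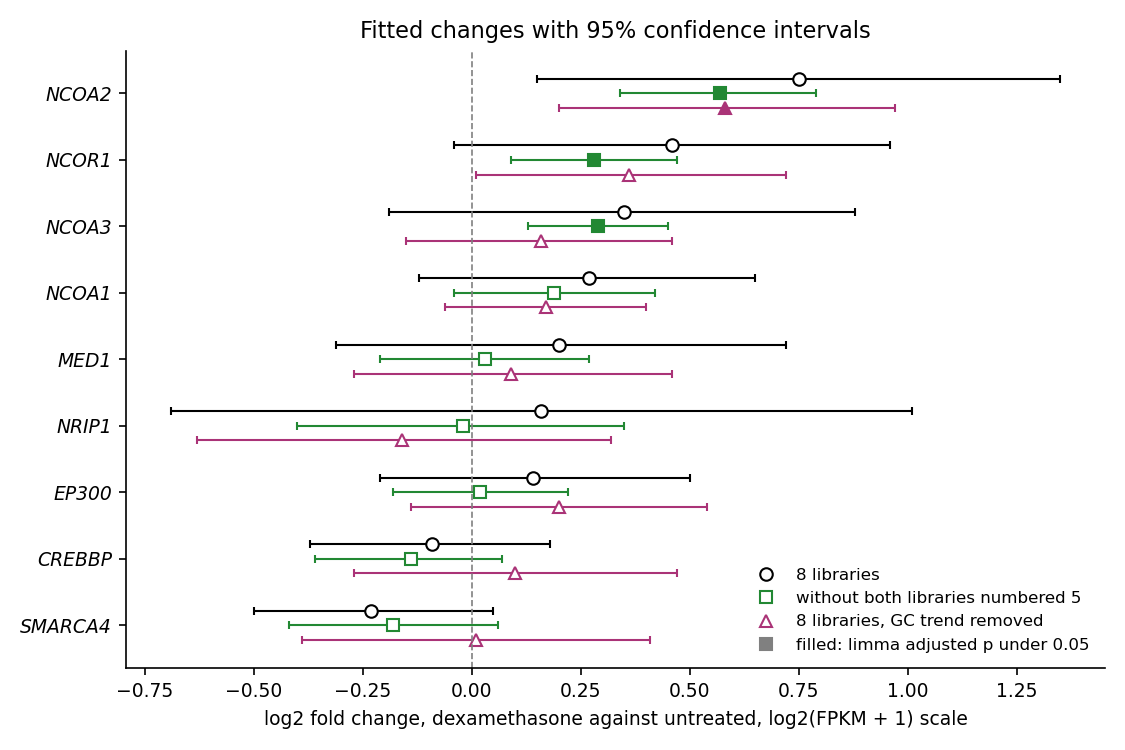
Log2 fold change of each coregulator, dexamethasone against untreated, with 95% intervals, over all 8 libraries, without both libraries numbered 5, and with the GC trend removed; filled symbols have an adjusted p under 0.05. NCOA2 is the highest in all 3 fits, from 0.57 to 0.75, and the intervals are narrower without the libraries numbered 5.

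The acetyltransferases CREBBP and EP300, close relatives that acetylate histones at enhancers, did not pass in any of the fits. CREBBP (ENSG00000005339, minus strand of chromosome 16, 3725054 to 3880726) had 18.9, 20.6, 17.4 and 12.3 FPKM untreated and 17.0, 17.1, 15.3 and 14.1 FPKM treated. All treated values lay inside the untreated range, and the log2 fold change was -0.09 (SE 0.122, interval -0.37 to 0.18, adjusted p = 0.593 by limma). EP300 (ENSG00000100393, plus strand of chromosome 22, 41091786 to 41180079) had 15.4, 15.2, 15.2 and 7.85 FPKM untreated and 15.5, 15.9, 13.6 and 12.6 FPKM treated. Apart from untreated library 5 its values spanned 12.6 to 15.9 FPKM, and the log2 fold change was 0.14 (SE 0.158, interval -0.21 to 0.5, adjusted p = 0.526). The fitted folds thus had intervals of 0.775 to 1.13 for CREBBP and 0.863 to 1.41 for EP300. The sign of the CREBBP value was not the same once the GC trend was removed (0.10, adjusted p = 0.68).

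The ratio of CREBBP to EP300 was 1.23, 1.36, 1.15 and 1.57 in untreated libraries and 1.1, 1.08, 1.13 and 1.12 in treated ones. The groups did not overlap, and the treated ratios lay within 1.11 ± 0.0207 (SD, n = 4) against 1.33 ± 0.185 untreated. The ratio was chosen after the values had been seen and has no test. Its components differ in GC content, at 55.8% and 49.8%, and the highest ratio was in untreated library 5. The part of base composition in this difference was not tested.

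MED1 (ENSG00000125686, minus strand of chromosome 17, 39404285 to 39451286), the Mediator subunit that binds receptors, had 16.0, 17.4, 20.3 and 6.93 FPKM untreated and 17.1, 16.3, 19.5 and 13.2 FPKM treated. The groups overlapped, and libraries 1, 3 and 4 differed little between groups. Its log2 fold change was 0.2 (SE 0.23, interval -0.31 to 0.72, adjusted p = 0.537 by limma), and 0.03 without both libraries numbered 5 (adjusted p = 0.838). Of the other 31 Mediator subunits, all tested, 0 passed in either direction by limma, beside 27.1% of all genes. An unadjusted p under 0.05 was found for 3 of them, beside 4788 of the 12161 genes tested. In limma without the trend and robust settings there was 1 call among the subunits. Their median log2 fold change of 0.01 lay beside 0.02 for all genes. Values ranged from -0.43 for MED27 to 0.51 for CCNC, the cyclin of the kinase module. The smallest p-values were those of MED13L, a kinase module subunit, at -0.37 (SE 0.126, adjusted p = 0.0533), and MED23, a tail subunit, at 0.49 (SE 0.191, adjusted p = 0.0882). Without both libraries numbered 5, 1 subunit passed as higher (MED23, 0.42) and 2 as lower (MED13L, -0.40, and MED27, -0.36), beside 22.5% and 22.8% of all genes.

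SMARCA4 (ENSG00000127616, plus strand of chromosome 19, 10960825 to 11079426) had 4.94, 4.89, 4.66 and 3.68 FPKM untreated and 4.6, 3.9, 3.53 and 2.95 FPKM treated. The groups overlapped, with untreated library 5 below treated libraries 1 and 3. The log2 fold change was -0.23 (SE 0.123, interval -0.5 to 0.05, adjusted p = 0.202 by limma), and 0.01 with the GC trend removed (adjusted p = 0.97), SMARCA4 having the highest GC content of the 9 at 60.6%. Its untreated mean of 4.54 FPKM lay below that of each of the 22 other SWI/SNF subunits, of which ARID2 was next at 5.00 FPKM. SMARCA2 (ENSG00000080503, plus strand of chromosome 9, 1980290 to 2193624), the alternative ATPase of the complex, had 10.4, 11.7, 10.9 and 5.62 FPKM untreated and 23.8, 16.2, 22.1 and 16.4 FPKM treated. Its groups did not overlap, and it rose by a log2 of 0.98 (SE 0.179, interval 0.58 to 1.39, adjusted p = 0.00329), with 1.01 once the GC trend was removed.

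The SMARCA2 to SMARCA4 ratio was accordingly 2.1, 2.4, 2.34 and 1.53 untreated and 5.16, 4.15, 6.26 and 5.55 treated, without overlap and without a test. The transcripts of SMARCA2 and SMARCA4 differ in GC content, at 48.8% and 60.6%, and the lowest ratio was in untreated library 5. The part of base composition in this ratio was not tested. Of the 22 other SWI/SNF subunits, SMARCA2 was the 1 that rose, and BCL7A, an accessory subunit, the 1 that fell (from 5.37 ± 0.579 to 3.59 ± 0.393 FPKM, SD, n = 4; log2 -0.47, adjusted p = 0.0278; -0.31 with the GC trend removed). The BCL7A call was lost when any of untreated replicates 1 and 4 or dexamethasone replicates 1, 3 and 5 was left out, with adjusted p up to 0.0722. With GC removed and both libraries numbered 5 left out it was lost too, at -0.23 (adjusted p = 0.104). Calls in 2 of 22 subunits stand beside 27.1% of all genes, and the median of the 22 was -0.12, beside 0.02 for all genes. Without both libraries numbered 5, 2 subunits passed as higher and 5 as lower, beside 22.5% and 22.8% of all genes.

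**Figure D3:**
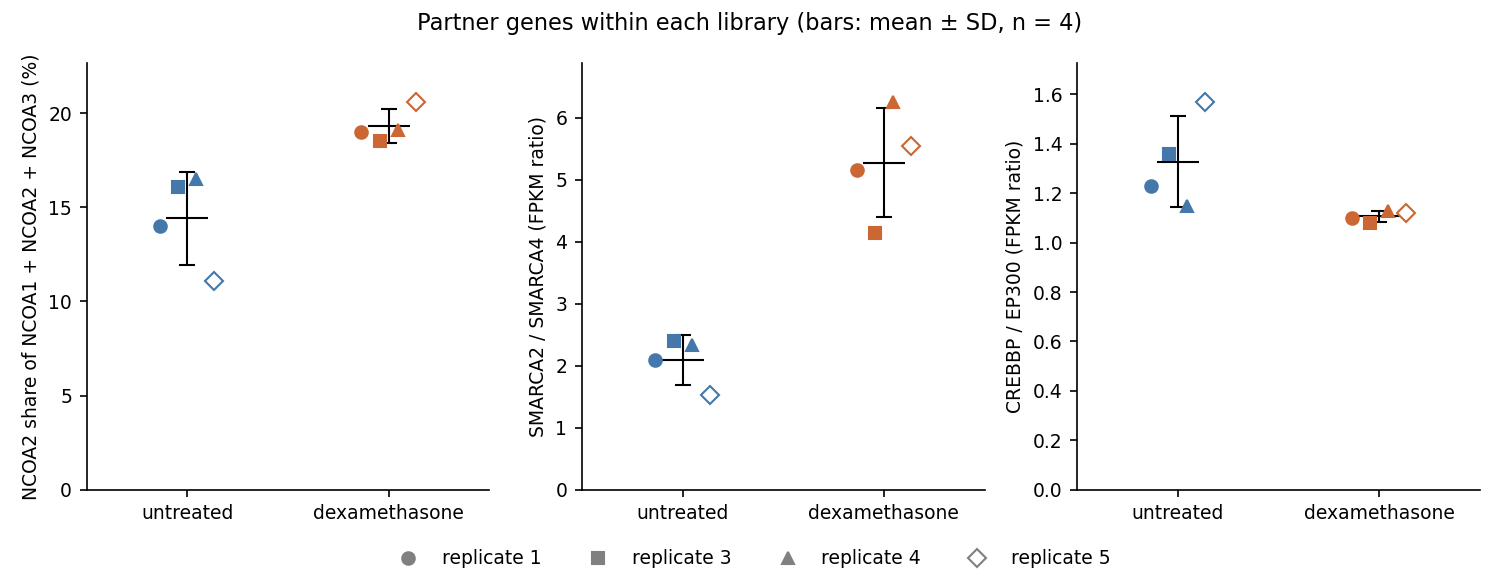
Ratios of coregulator FPKM within each library, untreated and dexamethasone side by side: NCOA2 as a percentage of summed p160 FPKM, SMARCA2 to SMARCA4 and CREBBP to EP300, with points for libraries and bars for mean and SD (n = 4). The groups do not overlap in any of the 3 panels. Treated values are higher in the NCOA2 and SMARCA2 panels and lower in the CREBBP panel. The NCOA1 share, the NCOA3 share and the summed p160 FPKM, which overlapped between groups, are not drawn. How often ratios of other genes do not overlap was not computed.

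Of the corepressors, NCOR1 (ENSG00000141027, minus strand of chromosome 17, 16029157 to 16218185) had 39.0, 36.6, 42.0 and 15.9 FPKM untreated and 49.0, 43.6, 46.1 and 35.3 FPKM treated. Treated libraries 1, 3 and 4 lay above all untreated ones, and treated library 5 below untreated libraries 1, 3 and 4. For NCOR1 the log2 fold change was 0.46 (SE 0.222, interval -0.04 to 0.96, adjusted p = 0.158 by limma). Without both libraries numbered 5 it was 0.28 (SE 0.0807, adjusted p = 0.0246), from 39.2 ± 2.71 to 46.2 ± 2.69 FPKM (SD, n = 3), and with the GC trend removed over 8 libraries 0.36 (adjusted p = 0.0984). Without untreated replicate 5 alone it was 0.22 (adjusted p = 0.163). NCOR1 has 5 annotated pseudogenes and shares 340 exonic bases with TTC19 and 321 with PIGL on the opposite strand, so that some of its reads may belong to them.

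NRIP1 (RIP140; ENSG00000180530, minus strand of chromosome 21, 14961235 to 15065936) had 7.17, 11.0, 9.15 and 1.92 FPKM untreated and 9.53, 6.91, 9.4 and 4.08 FPKM treated. The groups overlapped throughout. A log2 fold change of 0.16 had the widest interval of the 9 (SE 0.378, -0.69 to 1.01, adjusted p = 0.769 by limma), so that neither a fold of 0.622 nor one of 2.02 was outside it. Its sign was not stable: the value was -0.02 without both libraries numbered 5 and -0.16 with the GC trend removed. NRIP1 has the lowest GC content of the 9 at 38.8% and shares 562 exonic bases with an antisense long noncoding RNA.

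The drop in the libraries numbered 5 was not the same for all 9 genes. Untreated replicate 5 lay below the other untreated libraries by -1.54 in log2 for NRIP1, -1.14 for NCOA2, -0.96 for MED1 and -0.95 for NCOR1, but by -0.28 for CREBBP and -0.06 for SMARCA4. The 2 genes with the smallest drops are the 2 of highest GC content. In dexamethasone replicate 5 the differences were smaller for 8 of the 9, from -0.09 for CREBBP to -0.8 for NRIP1, with SMARCA4 at -0.24. Over all tested genes untreated replicate 5 was the lowest of its group for 57.4% and dexamethasone replicate 5 for 46.6%, and among genes with GC content under 50% for 87.4% and 75.2%. Among the 2624 tested genes with transcripts at least as long as that of SMARCA4, the shortest of the 9 at 5577 bases, it was 82.8% and 67.2%. Base composition, transcript length and replicate number move together here, and their parts in the values of the 9 genes were not separately tested. Without both libraries the groups did not overlap in FPKM for 5 of the 9 genes, 3 higher (NCOA2, NCOA3, NCOR1) and 2 lower (CREBBP, SMARCA4), beside 56.4% of all genes, 24.6% higher and 31.8% lower.

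**Figure D4:**
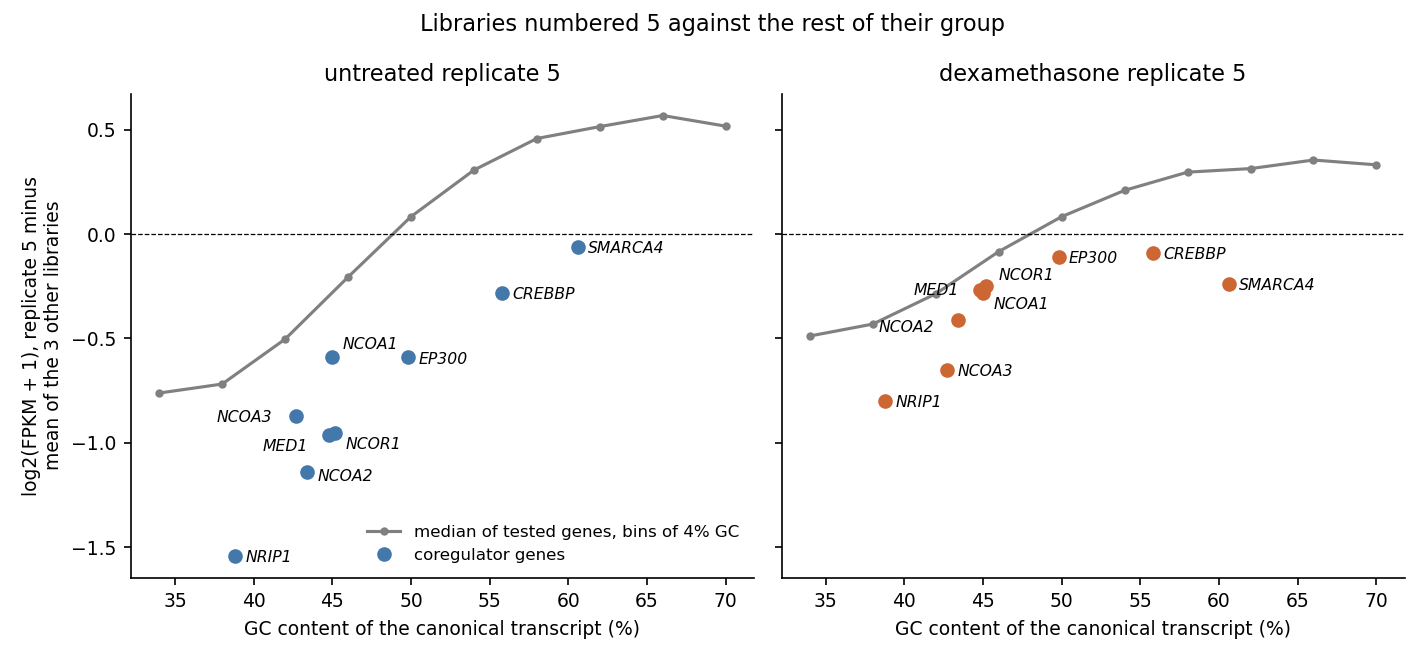
Log2 difference of each library numbered 5 from the mean of the other 3 of its group, against GC content of the transcript; lines are medians of tested genes in GC bins and points are the 9 coregulators. In both groups the medians run from negative at low GC to positive at high GC, and all 9 points are below 0.

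By the shape of the values over the 8 libraries (root mean square difference of centred log2(FPKM + 1), a description only), CREBBP and SMARCA4 were nearest to each other at 0.127, and NCOA1 and EP300 at 0.132. NCOA2, NCOA3 and MED1 each had NCOR1 as their nearest, at 0.19, 0.149 and 0.156, and NRIP1 had NCOA3 at 0.285. The farthest pair was NCOA2 and SMARCA4 at 0.605. These distances include the shared drop in the libraries numbered 5.

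Of 24 other coactivators tested, 5 rose and 2 fell, beside 12.5% of all genes higher and 14.6% lower. CITED2, which binds CREBBP and EP300, had 5.94, 5.03, 5.57 and 5.46 FPKM untreated and 23.7, 28.2, 24.4 and 30.7 FPKM treated. It rose by a log2 of 2.09 (SE 0.147, adjusted p = 1.16e-05 by limma), with every treated library far above every untreated one. PNRC1, a proline-rich coactivator, rose from 23.3 ± 1.74 to 65.5 ± 1.02 FPKM (SD, n = 4; log2 1.46, adjusted p = 1.57e-05). PPARGC1B, a coactivator of energy metabolism genes, rose from 1.85 ± 0.603 to 5.27 ± 0.885 FPKM (log2 1.17, adjusted p = 0.00047), and NCOA4, an androgen receptor coactivator that also carries ferritin to autophagy, from 33.4 ± 7.22 to 49.6 ± 4.55 FPKM (log2 0.58, adjusted p = 0.00749). PNRC2, which also serves in mRNA decay, rose from 1.2 ± 0.487 to 2.8 ± 1.1 FPKM (log2 0.78, adjusted p = 0.0294; 0.44 with the GC trend removed and 1.18 with a pseudocount of 0.1), a call lost without scaling between libraries (adjusted p = 0.0563) and when untreated replicate 4 or dexamethasone replicate 1, 3 or 4 was left out (up to 0.0911). PPRC1, a relative of PPARGC1B, fell from 25.4 ± 0.614 to 15.9 ± 1.4 FPKM (log2 -0.64, adjusted p = 0.00616). EHMT2, a histone methyltransferase with both coactivator and corepressor roles, fell from 24.5 ± 4.0 to 13.8 ± 2.3 FPKM (log2 -0.78, adjusted p = 0.0199), a call lost without dexamethasone replicate 1 (adjusted p = 0.0636). In the fit lacking the libraries numbered 5, 8 of the list passed as higher and 8 as lower, beside 22.5% and 22.8% of all genes.

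Of 15 other corepressors tested, 5 fell and 0 rose, beside 14.6% of all genes lower and 12.5% higher, with a median log2 fold change of -0.34 beside 0.02 for all genes. With the GC trend removed, 5 passed as lower and the median was -0.19, beside 0.01 for all genes. With the libraries numbered 5 left out, 7 passed as lower and 0 as higher, beside 22.8% and 22.5% of all genes. NR0B1 (DAX1), a receptor-like protein without a DNA-binding domain that represses other receptors, fell from 18.4 ± 0.59 to 6.91 ± 0.597 FPKM (SD, n = 4; log2 -1.30, SE 0.13, adjusted p = 8.66e-05 by limma). HR (hairless), a corepressor of the vitamin D receptor, fell from 7.24 ± 0.992 to 2.89 ± 0.656 FPKM (log2 -1.09, adjusted p = 0.00293). TRIM28, a scaffold of heterochromatin repressors, fell from 260 ± 36.6 to 138 ± 20.1 FPKM (log2 -0.90, adjusted p = 0.0106). Parts of the complexes that NCOR1 and related scaffolds assemble are in the same list. TBL1X, a subunit of the NCOR1 complex, fell from 17.2 ± 2.78 to 11.0 ± 0.507 FPKM (log2 -0.58, adjusted p = 0.00657). HDAC1, the deacetylase of SIN3 and other complexes, fell from 44.5 ± 0.696 to 33.5 ± 2.39 FPKM (log2 -0.40, adjusted p = 0.0465), a call lost when any 1 library other than dexamethasone replicate 5 was left out (adjusted p up to 0.131) and with median-ratio scaling (0.0586). HDAC3, the deacetylase that NCOR1 activates, had -0.34 with an adjusted p of 0.199. TBL1XR1 and HDAC2 of the same list went the other way, at 0.64 and 0.59, and did not pass (adjusted p = 0.214 and 0.232 by limma). They were the 2 of the 15 corepressors fitted above 0.

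**Figure D5:**
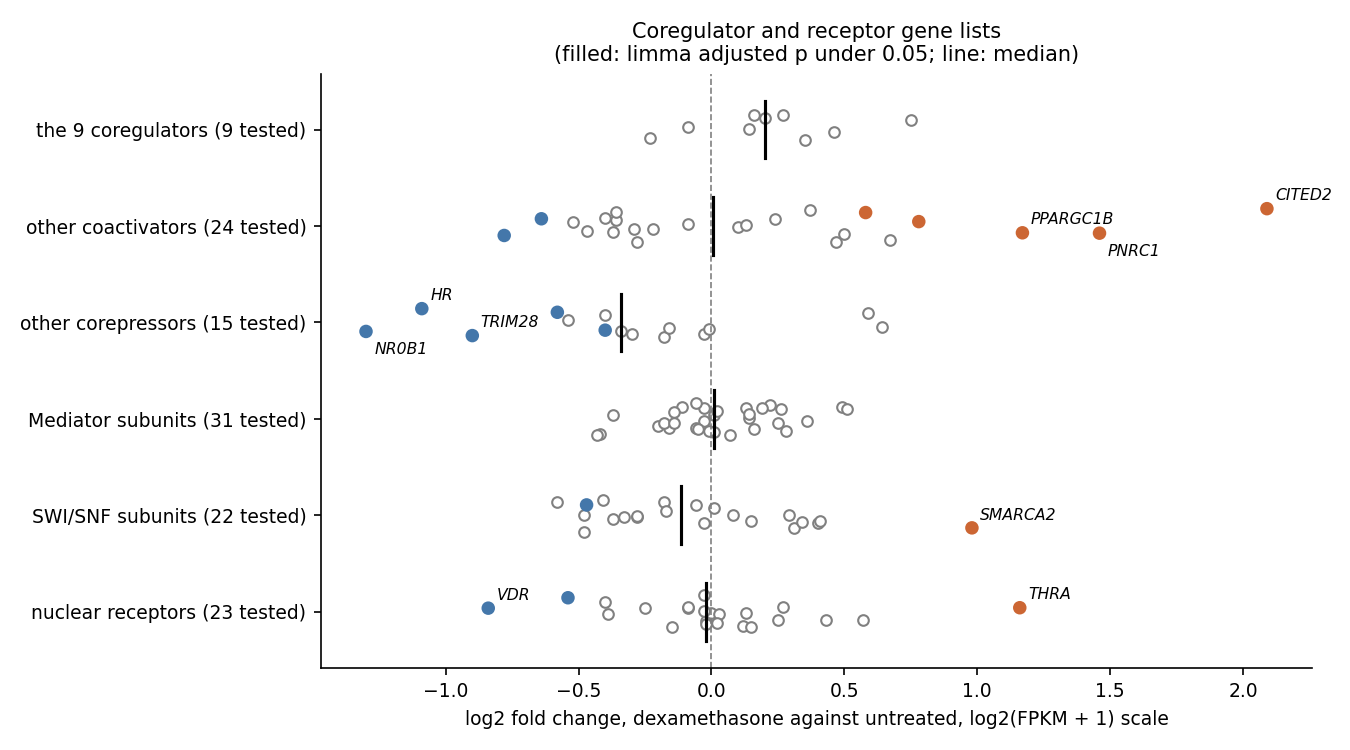
Log2 fold changes of the tested genes in each list, dexamethasone against untreated over 8 libraries; filled points passed an adjusted p under 0.05 and lines are list medians. None of the 9 coregulators and none of the Mediator subunits passed, and the corepressor list has the lowest median, -0.34.

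Of 23 nuclear receptors tested, the proteins these coregulators serve, 1 rose and 2 fell, beside 12.5% of all genes higher and 14.6% lower. THRA, a thyroid hormone receptor, rose from 10.2 ± 1.4 to 23.9 ± 2.4 FPKM (SD, n = 4; log2 1.16, SE 0.178, adjusted p = 0.00123 by limma). VDR, the vitamin D receptor, fell from 2.27 ± 0.372 to 0.823 ± 0.254 FPKM (log2 -0.84, adjusted p = 0.00125; -1.38 with a pseudocount of 0.1). NR1D1 (REV-ERB alpha), a heme-binding repressor that recruits NCOR1, fell from 4.19 ± 0.331 to 2.56 ± 0.293 FPKM (log2 -0.54, adjusted p = 0.0154; -0.32 with the GC trend removed). THRA and NR1D1 share 473 exonic bases on opposite strands, and whether reads were counted by strand is not given in the sources used here.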

How the data were processed

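RNA was measured in 8 libraries, 1 per well. Per the labels' protocols, ribosomal RNA was removed and libraries were primed with random hexamers. Per the submitters' processing notes, FastQC 0.11.9, cutadapt 3.4, STAR 2.7.9a, featureCounts (Subread 2.0.3), DESeq2 1.32.0 and GRCh38 were used; annotation and strand setting are not given in the sources used here. The deposited values, which the labels call counts, are not whole numbers. They were read here as FPKM, which no label or header of the deposited files states; this was inferred from sums (338989 to 373855) and from sums of value times transcript length (804691986 to 914923089). Only 39.9% to 45.0% of low values lay within 0.1 of whole fragments, so no count test was run; intervals of depth are therefore not given.

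FPKM were scaled by trimmed means of M values (trims 0.3 and 0.05). The test was that of limma 3.58.1 under R 4.3.3, on log2 values with a pseudocount of 1, two-sided, with trend and robust settings and treatment as its sole term. Genes entered if 4 or more libraries (3 where a library was left out) reached 0.5 FPKM, and p-values were adjusted by Benjamini-Hochberg with a threshold of 0.05. Fold changes on this scale understate those of low genes. GC content and transcript lengths came from GENCODE v44, where 19065 of 19158 identifiers matched; coordinates are printed as deposited. Lowess lines (span 0.3) removed GC or length trends in alternative fits. Same-numbered libraries deviated together with r of 0.29, 0.066, 0.313 and 0.712 for numbers 1, 3, 4 and 5, so the numbers were not treated as pairs.

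The 9 genes were taken by symbol, by a rule that uses no measured value, but they and the lists were chosen with earlier results of these data known. Named were the 9, FKBP5, TSC22D3, PER1, NR3C1 and SMARCA2, the 2 genes of smallest p in each list, and each gene's nearest among the 9. The remaining genes that passed in a list, MED27, CCNC, ARID2, HDAC3, TBL1XR1 and HDAC2 were added after their values were seen. A result that the rule selects is not reported here. Leave-one-out, scaling, filter, pseudocount, block and trend fits were alternatives; the fit with the GC trend removed and both libraries numbered 5 left out was added after seeing the data. Protein sequences were not analysed here.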

Additional observations from a re-analysis of the deposited data

Results flagged for a closer look

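In 64 groups of 4 libraries, a single library lay apart from the other 3 by Dixon's criterion at the 95% level in 3 groups. Each time it was untreated replicate 5. Chance gives about 1 in 20 groups, which is close to the share found. The groups were 1 per treatment for the 9 genes, the genes named by a rule and those that passed in a list. Marker genes, MED27, CCNC, ARID2, HDAC3, TBL1XR1 and HDAC2 were not among them. NCOA3 was low there at 13.3 FPKM, against 30.5 to 32.0 FPKM in the other untreated libraries. EP300 was low at 7.85 FPKM, against 15.2 to 15.4 FPKM. HR, the hairless corepressor, was high at 8.72 FPKM, against 6.59 to 6.85 FPKM. NCOA3 and EP300 have a GC content of 42.7% and 49.8%, and HR one of 65.0%.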

How the results depend on the processing

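FPKM carry no counts, so counting error could not be given, and 4 wells of 1 line limit the precision. The libraries numbered 5 moved most values. NCOA2 passed at 0.67 with quantile normalization, 0.75 with a replicate block, 0.58 with the GC trend removed (also 0.58 with the block), 0.57 with the length trend removed, 0.57 without both libraries numbered 5 and 0.45 with GC removed and those libraries left out together (both changes, below). NCOA3 passed at 0.35 with the block and 0.29 without both libraries. NCOR1 passed at 0.46 with the block, 0.36 with block and GC, 0.28 without both libraries and 0.23 with both changes. Signs reversed, with no call, for NRIP1 (-0.16 with GC removed, with or without the block, -0.0015 length, -0.02 without both libraries, -0.28 both changes), CREBBP (0.10 GC, 0.10 with the block, 0.01 both changes), EP300 (-0.04 length), MED1 (-0.04 both changes), SMARCA4 (0.01 GC, block and GC, and both changes) and NR3C1 (-0.14 GC, also with the block, -0.01 length). Of the 9 genes, 1 passed as higher with quantile, GC or length fits, 3 with the block and without both libraries, and 2 with block and GC or both changes.

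The replicate block, under numbers that do not pair every library best with its own, raised all calls from 3291 to 5743 (5328 with GC removed); without both libraries there were 5535 (5218 with GC removed). In the order block, block with GC, without both libraries and both changes, calls were 17, 13, 16 and 13 for other coactivators (7 over 8 libraries), 7, 6, 7 and 7 for corepressors (5), 3, 6, 3 and 4 for Mediator (0), 10, 5, 7 and 5 for SWI/SNF (2), and 7, 7, 6 and 7 for receptors (3). Mediator had 1 call without scaling, without trend and robust, or with the length trend removed, and 3 with GC removed; SWI/SNF had 4 with GC and 4 with length; receptors 6 with GC. Leaving out 1 library at a time gave NCOA1 0.12 to 0.36, NCOA2 0.47 to 0.87, NCOA3 0.13 to 0.51, NCOR1 0.22 to 0.56, NRIP1 -0.22 to 0.39, CREBBP -0.16 to -0.02, EP300 -0.0021 to 0.2, MED1 -0.04 to 0.33, SMARCA4 -0.3 to -0.17 and NR3C1 -0.08 to 0.49. Calls then ran from 0 to 1 for the 9 genes, 5 to 10 for coactivators, 4 to 6 for corepressors, 0 to 1 for Mediator, 1 to 3 for SWI/SNF, 3 to 5 for receptors and 2398 to 3849 for all genes. Causes were not tested.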
